A study of Mus musculus with 11 samples.

Results

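The Sonic hedgehog pathway was followed through 9 genes in RNA-seq of mouse forelimb buds: the ligand Shh, the receptors and co-receptors Ptch1, Gas1 and Boc, the secreted signal antagonist Hhip, the signal transducer Smo and the transcription factors Gli1, Gli2 and Gli3. Members were taken by gene symbol, and all 9 were found among the 47517 genes of the count table and among the 15821 genes that passed the filter on low counts. The forelimb buds came from embryos on a C57BL/6 background at E10.5 (embryonic age in days), and 11 libraries were analysed. The 5 control libraries carried 1 floxed and 1 wild-type allele of Gmnn together with Prx-Cre (Gmnn +/f; Prx-Cre). The 6 mutant libraries carried 2 floxed alleles together with Prx-Cre (Gmnn f/f; Prx-Cre). Gmnn encodes Geminin, an inhibitor of the replication licensing factor Cdt1 that also acts with chromatin regulators, and Prx-Cre drives Cre recombinase in limb bud mesenchyme. Both genotypes carried the Cre transgene and at least 1 floxed allele, so that 1 allele could recombine in the controls too. Ectoderm, blood and vessels of the bud lie outside the usual expression of Prx-Cre and were part of the tissue that was sequenced. Every litter contained both genotypes. Controls 1 and 2 were littermates of mutants 1 and 2 (litter A), control 3 of mutant 6 (litter B), control 4 of mutant 5 (litter C), and control 5 of mutants 3 and 4 (litter D). The title and design text of the series set the comparison in the patterning of the limb, with mutants paired to controls by litter and somite stage.

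Sonic hedgehog is secreted by a small group of posterior mesenchymal cells at the edge of the limb bud, the zone of polarizing activity, and it patterns the digits and sustains outgrowth. Without ligand, Ptch1 holds Smo inactive and Gli3, and to a lesser extent Gli2, are processed to repressors. When ligand binds Ptch1 with the help of Gas1, Boc or Cdon, Smo is released at the primary cilium, the full-length Gli proteins activate targets, and Ptch1, Gli1 and Hhip are transcribed in response. Ptch1 and Hhip bind the ligand and limit its range, so that the targets include the pathway's own brakes.

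Total counts ran from 14777833 to 19733288 in controls and from 14721181 to 17034741 in mutants. Gmnn transcripts remained in every mutant, at 99.5 to 138 CPM (counts relative to the scaled library total), against 139 to 239 CPM in controls. Gmnn fell by 0.67 on the log2 scale (SE 0.10, adjusted p = 0.0291 by edgeR's quasi-likelihood test, Benjamini-Hochberg adjusted across the 15821 genes), with no overlap between the groups. Markers were set against the forelimb label. Limb mesenchyme genes (Prrx1, Tbx5, Msx1, Lhx2 and Lhx9) summed to 602 to 825 CPM in controls and 579 to 694 CPM in mutants, and the hindlimb genes Tbx4 and Pitx1 to at most 6.80 CPM. Markers of floor plate, notochord and gut, which also make Shh, had few reads. Foxa2 had 16 reads and Foxa1 had 12 over the 11 libraries, Nkx2-2 had 1, and Nkx2-1 and Olig2 had 0. T had 131, against 195 for Shh itself. The sum of these markers ran from 0.14 to 1.54 CPM in controls and from 0.49 to 1.92 CPM in mutants. Shh was on the same level, at 0.21 to 2.13 CPM in controls and 0.75 to 1.91 CPM in mutants. Both the marker sum and Shh were lowest in control 5. Whether some Shh reads came from such tissue was not tested.

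A pair of libraries from litter D, control 5 and mutant 4, stood apart in Hoxd11, Hoxd12, Hoxd13 and Osr1, genes picked after their values were seen, and each member's values are given with this in view. Hoxd12, a 5′ HoxD gene of the posterior and distal limb bud, was at 0.35 CPM in control 5 against 9.27 to 38.8 CPM in the other controls, and at 1.19 CPM in mutant 4 against 11.3 to 35.5 CPM in the other mutants. Hoxd11, Hoxd13 and Osr1 were also lowest within their group in these libraries. Hand2, another posterior gene, was not low in control 5 (15.8 CPM against 10.6 to 17.7 CPM in the other controls) and was lowest in mutant 4 (14.9 CPM against 18 to 21.5 CPM). The labels give no somite number for single embryos, so that a difference in stage of these libraries was not tested. Red blood cell genes summed to 10181 to 25058 CPM in controls and 12187 to 42480 CPM in mutants, and macrophage genes to 2.24 to 20.1 CPM and 6.05 to 27.0 CPM. The part of these differences in the results below was not tested.

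Of the 9 members, 1 passed an adjusted p of 0.05, Gas1, which was lower in mutants, against 2.18% of all genes tested (0.702% higher and 1.48% lower). At an unadjusted p under 0.05 there were 3 of 9, Ptch1 and Gli1 with higher values in mutants and Gas1 with lower ones, against 21.4% of all genes tested (9.84% higher and 11.5% lower). The median log2 fold change was -0.002 over the members, of which 4 were on the higher and 5 on the lower side (Smo, the median gene, moved to the higher side with upper-quartile scaling, at 0.036), and 0.004 over all genes. None of the 9 members had groups that did not overlap, a property of 2.59% of all genes tested (1.29% with all mutants above, 1.3% with all mutants below). The mutant mean lay on the same side of the control mean in all 4 litters for 4 of 9 members, higher for Ptch1 and Gli1 and lower for Gli2 and Gas1, against 26% of all genes tested (12.6% higher, 13.5% lower).

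**Figure D1:**
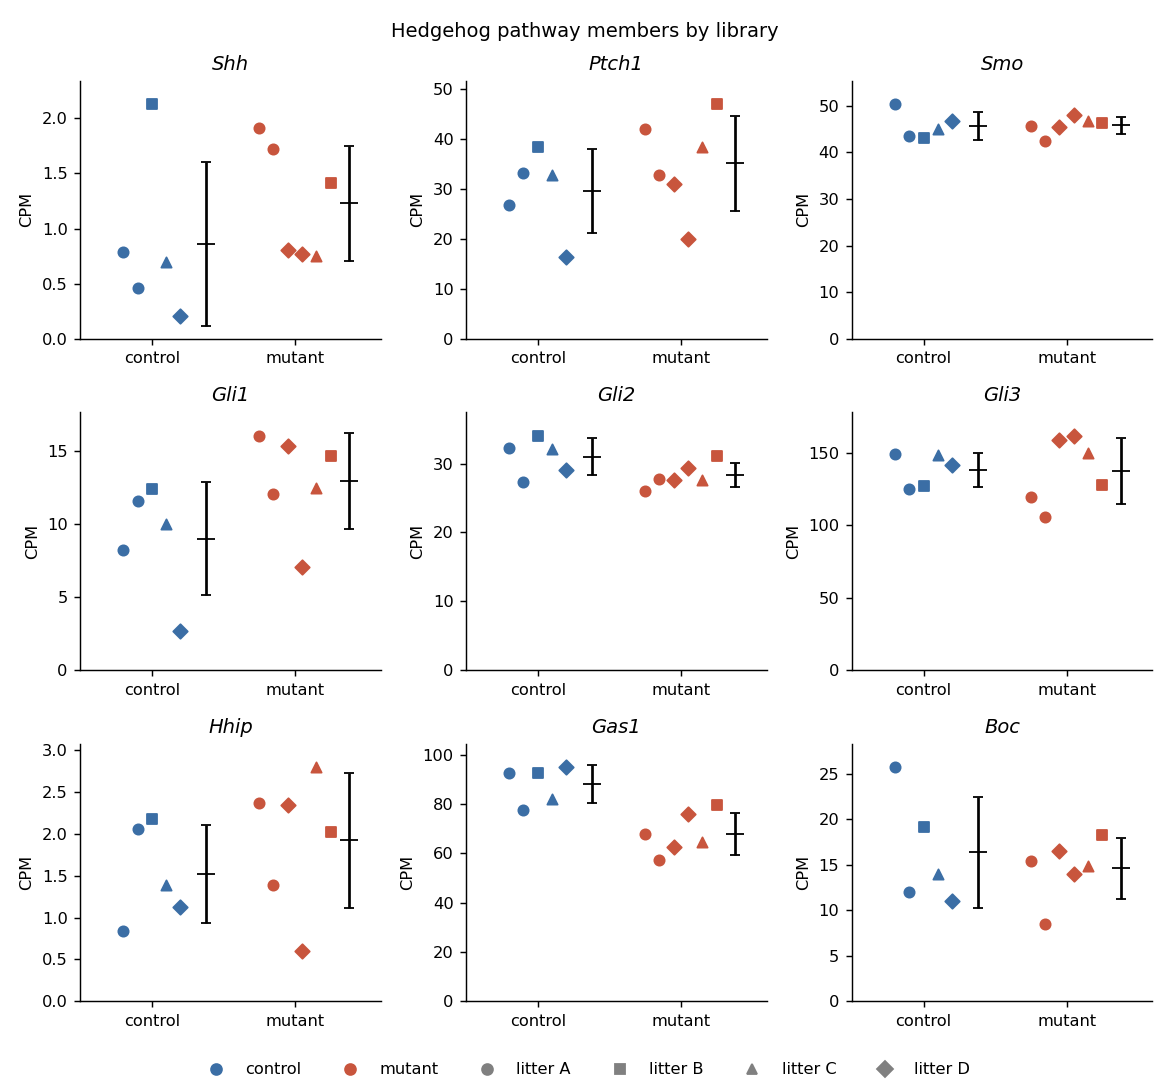
Level of each of the 9 members (CPM, y axis from 0) in the 5 control and 6 mutant libraries. Each point is a library, its shape gives the litter, and the black bar is the mean ± SD; all 9 pairs of groups overlap, Gas1 only through mutant 6 at 79.7 CPM and control 2 at 77.4 CPM.

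Shh, the ligand, was a rare transcript with a wide spread between libraries. In controls it was at 0.78, 0.46, 2.13, 0.70 and 0.21 CPM (controls 1 to 5), a mean of 0.86 ± 0.74 CPM (SD, n = 5). Mutants 1 to 6 were at 1.91, 1.72, 0.81, 0.77, 0.75 and 1.41 CPM, a mean of 1.23 ± 0.52 CPM (SD, n = 6). The highest library was control 3 and the lowest was control 5, so that the controls enclosed all of the mutants. The log2 fold change was 0.83 (SE 0.40, 95% interval -0.05 to 1.70, adjusted p = 0.262 by edgeR's quasi-likelihood test), and the exact permutation test within litters gave p = 0.0694, two-sided.

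The litters did not run the same way for Shh. Mutants were higher by 1.41 in litter A and 1.46 in litter D on the log2 scale, differed by 0.09 in litter C, and were lower in litter B, where the difference was -0.55. The test of this genotype by litter interaction gave an adjusted p of 0.95 by edgeR. Without litter A the fold change was 0.28 (adjusted p = 0.847), and without litter B it was 1.26 (adjusted p = 0.208, edgeR). Few reads lie behind these values: 3 in control 5 and 39 in control 3, with 9 to 33 in the other libraries. The exact Poisson 95% interval was 0.04 to 0.61 CPM in control 5 and 1.51 to 2.91 CPM in control 3, and covers counting error only. In bulk tissue, fewer Shh-producing cells and less Shh RNA per cell cannot be told apart, and the same holds for each member below.

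Shh lies on chromosome 5, 28456815 to 28467256, minus strand (mm10, like all positions here). In GENCODE M21, 28.4% of its exon bases overlap exons of genes on the other strand, 9530036O11Rik with 15.7% and Gm26894 with 12.7%. The counting was not strand-aware, so that reads in those stretches were assigned to neither gene.

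Ptch1, the receptor and a direct target of the pathway, was higher on average in mutants and did not pass the adjusted threshold. Controls 1 to 5 were at 26.7, 33.1, 38.4, 32.8 and 16.4 CPM, a mean of 29.5 ± 8.41 CPM (SD, n = 5). Mutants 1 to 6 were at 41.9, 32.8, 30.9, 19.9, 38.4 and 46.9 CPM, a mean of 35.1 ± 9.47 CPM (SD, n = 6). Control 5 and mutant 4 were the lowest of their groups, and mutants 1, 5 and 6 were above every control, mutant 5 only just. The log2 fold change was 0.37 (SE 0.13, 95% interval 0.09 to 0.64), a ratio of 1.29, with an adjusted p of 0.128 by edgeR and p = 0.0556 by the exact permutation test.

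The log2 difference in Ptch1 was 0.32 in litter A, 0.29 in litter B, 0.23 in litter C and 0.59 in litter D. In the test of litter differences Ptch1 had the lowest adjusted p of the members, 0.117 by edgeR. Of the 9 members, 0 passed the adjusted litter test, against 0.0885% of all genes tested, and Ptch1, Shh and Gli3 had an unadjusted p under 0.05 in the same edgeR fit, 3 of 9 against 13.5% of the genes tested. Ptch1 lies on chromosome 13, 63508328 to 63573598, minus strand, 38.8 Mb from Gmnn.

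Gli1, the transcription factor whose transcription is itself a readout of the pathway, was higher on average in mutants and did not pass the adjusted threshold. Controls 1 to 5 were at 8.22, 11.6, 12.4, 9.99 and 2.66 CPM, a mean of 8.97 ± 3.87 CPM (SD, n = 5). Mutants 1 to 6 were at 16.0, 12.0, 15.3, 7.02, 12.4 and 14.7 CPM, a mean of 12.9 ± 3.30 CPM (SD, n = 6). Mutants 1, 3, 5 and 6 were above every control, mutant 5 only just. Mutant 2 lay among the controls, and mutant 4 was below every control except control 5. The log2 fold change was 0.70 (SE 0.27, 95% interval 0.11 to 1.29), a ratio of 1.63, with an adjusted p of 0.170 by edgeR.

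The exact permutation test within litters gave p = 0.0139 for Gli1, two-sided, the smallest value that the 72 arrangements can give. Most of the size came from litter D, where the difference was 1.92 on the log2 scale against 0.50, 0.24 and 0.31 in litters A, B and C. In litter D control 5 was set against the mean of mutants 3 and 4. Gli1 was at 2.66, 15.3 and 7.02 CPM in these libraries, and Hoxd12 at 0.35, 15.9 and 1.19 CPM. The same libraries make up the litter D difference of each member. The interaction test gave an adjusted p of 0.95 by edgeR. Without control 5 the fold change was 0.39 (adjusted p = 0.320) and without litter D it was 0.39 (adjusted p = 0.187, edgeR). With the T-run index described below as a further term it was 1.16 (adjusted p = 0.381, edgeR). DESeq2 called Gli1, with a log2 fold change of 0.73 and an adjusted p of 0.0407. Gli1 lies on chromosome 10, 127329889 to 127341589, minus strand.

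Hhip, the membrane-bound and secreted protein that binds and sequesters hedgehog ligands, was also a rare transcript. Controls 1 to 5 were at 0.84, 2.06, 2.18, 1.39 and 1.12 CPM, a mean of 1.52 ± 0.58 CPM (SD, n = 5), and mutants 1 to 6 at 2.37, 1.39, 2.35, 0.60, 2.80 and 2.03 CPM, a mean of 1.92 ± 0.80 CPM (SD, n = 6). Mutant 4 was the lowest library of all, and mutants 1, 3 and 5 were above every control. In log2 terms Hhip differed by 0.40 (SE 0.37, 95% interval -0.41 to 1.21, adjusted p = 0.582 by edgeR; exact permutation p = 0.417). It was 0.20 without mutant 3, 0.25 without control 1 and 0.61 without control 2, and 0.62 with the T-run index described below (adjusted p 0.433 to 0.798, edgeR). The 95% interval bounds the change that these libraries allow, and at 10 to 41 reads per library counting error is a part of the spread. Hhip lies on chromosome 8, 79966115 to 80058006, minus strand.

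Ptch1 and Hhip are shown with the sequence in front of their start sites because both are known to be transcribed in response to the pathway. RefSeq promoters (GRCm38.p6, the assembly of mm10) were matched for 6 of 9 members, Ptch1, Hhip, Gas1, Smo, Gli2 and Gli3. Shh, Gli1 and Boc were not matched. The 250 bases upstream of the annotated start are given 5′ to 3′ on the gene's strand, at chr13:63565736-63565985 (minus strand) for Ptch1 and chr8:80058009-80058258 (minus strand) for Hhip. Capitals mark GC boxes (GGGCGG or CCGCCC) and the core of the GLI motif (CCACCC or GGGTGG).
Ptch1: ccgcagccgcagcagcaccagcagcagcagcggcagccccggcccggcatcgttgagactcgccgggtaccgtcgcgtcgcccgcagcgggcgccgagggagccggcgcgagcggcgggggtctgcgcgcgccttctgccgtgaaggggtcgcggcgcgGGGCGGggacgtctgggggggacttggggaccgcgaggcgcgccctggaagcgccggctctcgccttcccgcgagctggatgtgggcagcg
Hhip: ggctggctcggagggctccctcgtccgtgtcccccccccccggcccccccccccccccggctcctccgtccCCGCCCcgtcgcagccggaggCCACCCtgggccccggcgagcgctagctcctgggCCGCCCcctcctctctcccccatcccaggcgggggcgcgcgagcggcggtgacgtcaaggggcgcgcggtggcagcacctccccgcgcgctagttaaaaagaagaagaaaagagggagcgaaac

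The Ptch1 stretch was 78.4% G and C and held a GC box starting 91 bases before the start site. The Hhip stretch was 76.0% G and C and held GC boxes starting 179 and 124 bases before the start site and the GLI core letters 158 bases before it. On either strand, the GLI core was found in 4 of the 6 member promoters (Gli2, Gli3, Hhip and Smo) and in 28.1% of all 32851 promoters in the table over the same 250 bases. The GC box was found in 5 of 6 (all but Smo) and in 32.7% of all promoters. The longer GLI motif GACCACCCA (TGGGTGGTC on the other strand), which contains the core, was in 0 of 6 and in 0.225% of all promoters. These are matches of letters in a fixed window, and the window of Ptch1 belongs to 1 of its annotated starts, inside the gene's span given above. The 6 member windows were 58.8% to 78.4% G and C. The set of all promoters was not matched for this content, so that the part of base composition in these shares was not tested.

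Gas1 was the only member that passed the adjusted threshold. It encodes a membrane-anchored co-receptor that binds Shh and helps it act through Ptch1, and in the neural tube and somites its own transcription is known to be held down by the signal. Controls 1 to 5 were at 92.6, 77.4, 92.7, 82.2 and 95 CPM, a mean of 88.0 ± 7.71 CPM (SD, n = 5). Mutants 1 to 6 were at 67.7, 57.2, 62.4, 75.9, 64.6 and 79.7 CPM, a mean of 67.9 ± 8.49 CPM (SD, n = 6). Of the 6 mutants, 5 were below every control, and mutant 6 lay above control 2 alone. Gas1 fell by 0.39 on the log2 scale (SE 0.08, 95% interval -0.57 to -0.21), a ratio of 0.765, with an adjusted p of 0.0457 by edgeR's quasi-likelihood test and an exact permutation p of 0.0139, the smallest that the arrangements can give.

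The fall in Gas1 was seen in all 4 litters, with log2 differences of -0.44, -0.22, -0.35 and -0.46 in litters A to D. The libraries that were low in Hoxd11 to Hoxd13 were not low here: control 5 was the highest control and mutant 4 the second highest mutant. They lay 0.14 and 0.20 log2 units above the mean of the other controls and the other mutants. The call itself was narrow. None of the 11 fits that left out 1 library passed the threshold, with an adjusted p of 0.05 at the lowest (without mutant 2) and 0.176 at the highest (without mutant 6), while the log2 fold change stayed between -0.42 and -0.34 (edgeR). DESeq2 gave an adjusted p of 0.00217 and limma-voom 0.0402.

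A property of the libraries moved with genotype beside this result. Transcripts with long runs of T were lower in most mutants: an index of their level, the mean log2 CPM of 959 genes with a run of at least 18 T minus that of all genes, lay between 1.25 and 1.37 in controls 1 to 4 and was lower, at 1.07, in control 5. It was 1.22 in mutant 5, while the remaining mutants lay between 0.81 and 1.08. The longest T run in Gas1 was 12 bases, the highest of the members. With this index entered as a covariate, an alternative added after seeing the data, the log2 fold change of Gas1 was -0.26 (adjusted p = 0.455, edgeR). Whether the property behind the index plays a part in the fall of Gas1 was not tested.

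Gas1 is a single-exon gene on chromosome 13, 60174405 to 60177365, minus strand, 35.4 Mb from Gmnn. In GENCODE M21, 19.9% of its exon bases overlap Gm48488 on the other strand, which is no row of the count table, so that reads from either strand there were counted as Gas1. Because Gas1 is the member that passed the adjusted threshold, the 250 bases in front of its start are shown as well (RefSeq, GRCm38.p6, chr13:60177536-60177785, minus strand). Capitals mark the GC box, which starts 144 bases before the start site. The 250 bases were 58.8% G and C, the lowest of the 6 member promoters, and held no match to the GLI core.
Gas1: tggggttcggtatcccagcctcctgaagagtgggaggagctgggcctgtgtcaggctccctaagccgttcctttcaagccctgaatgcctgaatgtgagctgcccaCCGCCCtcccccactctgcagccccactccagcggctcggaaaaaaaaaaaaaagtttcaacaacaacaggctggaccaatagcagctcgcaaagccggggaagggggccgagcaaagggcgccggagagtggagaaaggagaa

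Boc, an immunoglobulin-family co-receptor that binds Shh, was variable among controls. Controls 1 to 5 were at 25.7, 12.0, 19.1, 14.0 and 11 CPM, a mean of 16.4 ± 6.09 CPM (SD, n = 5), and mutants 1 to 6 at 15.4, 8.47, 16.5, 14.0, 14.8 and 18.2 CPM, a mean of 14.6 ± 3.33 CPM (SD, n = 6). The lowest library was mutant 2 and the highest was control 1, both of litter A. The log2 fold change was -0.14 (SE 0.24, 95% interval -0.65 to 0.38, adjusted p = 0.787 by edgeR), and its sign turned when litter A was left out (0.18). Boc lies on chromosome 16, 44485045 to 44558897, minus strand.

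Smo, the transducer that Ptch1 inhibits, was the steadiest member. Controls ran from 43.0 to 50.3 CPM with a mean of 45.7 ± 2.94 CPM (SD, n = 5), and mutants from 42.5 to 48.0 CPM with a mean of 45.8 ± 1.84 CPM (SD, n = 6). The groups covered almost the same range. The log2 fold change was -0.0021 (SE 0.07, adjusted p = 0.993 by edgeR), and its 95% interval of -0.16 to 0.15 bounds the change that these libraries allow. Smo lies on chromosome 6, 29735503 to 29761365, plus strand.

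Gli2, the main activator of the family in most tissues, was at 32.3, 27.4, 34.1, 32.1 and 29.1 CPM in controls 1 to 5, and at 26.1, 27.9, 27.7, 29.4, 27.7 and 31.1 CPM in mutants 1 to 6. Its mean was 31.0 ± 2.70 CPM in controls (SD, n = 5) and 28.3 ± 1.73 CPM in mutants (SD, n = 6), and the groups overlapped in all mutants but mutant 1. Gli2 had a log2 fold change of -0.13 (SE 0.08, 95% interval -0.30 to 0.04, adjusted p = 0.384 by edgeR; exact permutation p = 0.0833), with a negative difference in each litter, from -0.22 to -0.03. Gli2 lies on chromosome 1, 118834132 to 119053619, minus strand.

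Gli3, whose repressor form sets the anterior side of the limb bud, had the highest level of the Gli genes per length of exon. Controls ran from 125 to 149 CPM with a mean of 138 ± 11.5 CPM (SD, n = 5), and mutants from 106 to 162 CPM with a mean of 137 ± 22.9 CPM (SD, n = 6). Mutant 2 was the lowest library and mutant 4 the highest. Gli3 had a log2 fold change of -0.06 (SE 0.09, 95% interval -0.24 to 0.13, adjusted p = 0.742 by edgeR). The difference was -0.28 in litter A, 0.007 in litter B, 0.012 in litter C and 0.18 in litter D, and the fold change was 0.08 without litter A. Gli3 lies on chromosome 13, 15463235 to 15730026, plus strand, 9.02 Mb from Gmnn. RNA levels do not show how much Gli3 or Gli2 protein was in repressor or activator form.

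**Figure D2:**
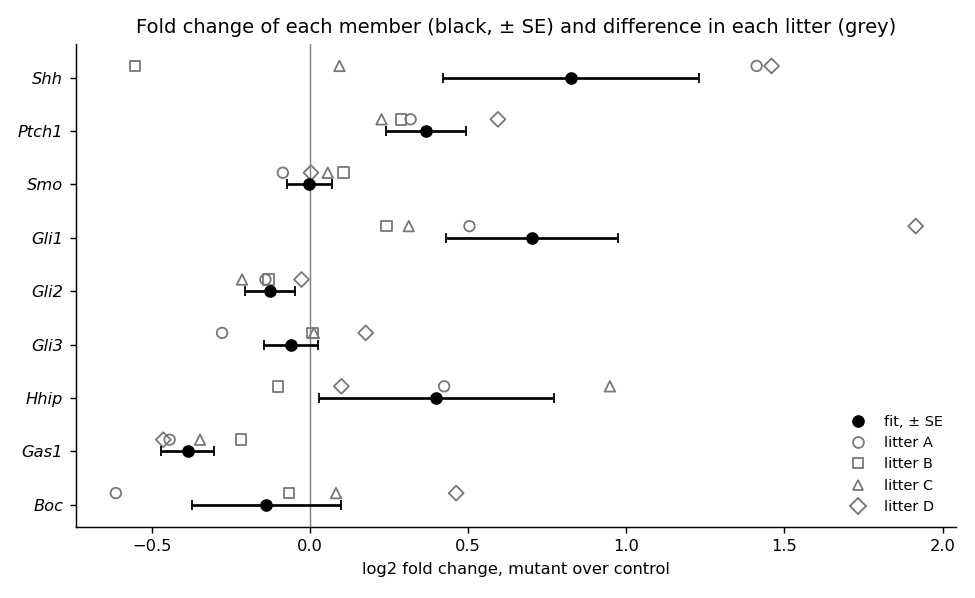
Log2 fold change, mutant over control, of the 9 members from edgeR (black points, bars ± SE) and the difference of mean log2 CPM within each litter (open grey points, shape by litter). Gas1 is negative in all 4 litters, Gli1 reaches 1.92 in litter D, and Shh runs from -0.55 in litter B to 1.46 in litter D.

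Of the 9 members, 0 passed the adjusted test of the genotype by litter interaction in edgeR and 0 had an unadjusted p under 0.05, against 0% and 3.82% of all genes. These tests have few residual degrees of freedom, since litters B and C hold 1 library of each genotype. Control 5 lay -1.58 (Shh), -0.98 (Ptch1) and -1.92 (Gli1) log2 units from the mean of the other controls, and mutant 4 lay -0.60, -0.92 and -0.99 from the other mutants for the same genes. Hhip was at -0.40 and -1.66, and Boc at -0.62 and -0.03. Ptch1 and Gli1 were the lowest of their group in both libraries. Shh was the lowest in control 5 but not in mutant 4, which lay just above mutant 5, and Hhip was the lowest in mutant 4 but not in control 5. Smo, Gli2, Gli3 and Gas1 differed by at most 0.31 in either library.

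Compared per length of exon, the members spanned a wide range of levels. In CPM per kilobase of exon over the 11 libraries, Gas1 had the highest level (26.0 ± 4.40, SD), then Gli3 (14.4 ± 1.85), Smo (8.14 ± 0.40), Gli2 (4.30 ± 0.37), Ptch1 (3.72 ± 1.04), Boc (3.45 ± 1.04), Gli1 (3.03 ± 1.08), Shh (0.37 ± 0.22) and Hhip (0.36 ± 0.15). Each of Gas1, Gli3 and Smo was above the next gene in 11 of 11 libraries, as was Gli1 over Shh. Neighbours in the middle changed places: Gli2 was above Ptch1 in 8 of 11 libraries, Ptch1 above Boc in 7 and Boc above Gli1 in 6. Shh was above Hhip in 6 of 11, so that these values of the 2 genes did not differ beyond their spread. The lengths include exon bases that overlap other genes, 28.4% for Shh and 3.57% for Hhip in GENCODE M21. Reads in the overlaps of Shh were not counted for it, so that its order with Hhip is uncertain.

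The targets were then related to the Shh level. Across the 11 libraries, log2 CPM of Gli1 correlated with that of Shh with Pearson's r = 0.735 (permutation p = 0.00969, 0.0548 after Benjamini-Hochberg adjustment over the 8 members compared with Shh). The Spearman rho was 0.636 (permutation p = 0.0403, adjusted 0.323). For Ptch1 r was 0.713 (permutation p = 0.0137, adjusted 0.0548) and rho was 0.455 (permutation p = 0.163, adjusted 0.434). For Hhip r was 0.324 (permutation p = 0.332, adjusted 0.443) and rho was 0.291 (permutation p = 0.387, adjusted 0.496). None of the 3 targets passed after adjustment, although Ptch1 and Gli1 did with a prior count of 0.5 in log2 CPM (r = 0.723 and 0.756, permutation, adjusted 0.0488 for both).

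Control 5 decided much of this relation. Shh was farthest from its median in controls 5 and 3, and without both r was 0.474 for Gli1 and 0.452 for Ptch1 (9 libraries). Without control 5 alone r was 0.449 and 0.485, and without control 3 alone it was 0.766 and 0.707. The relation was thus weaker without control 5 and stayed positive. Without control 5 and mutant 4 r was 0.437 and 0.522, and without all of litter D it was 0.566 and 0.497. With each litter's mean removed r was 0.658 for Gli1 and 0.550 for Ptch1, and these values still hold the genotype difference. With the mean of each genotype within its litter removed r was -0.231 for Gli1 and -0.222 for Ptch1. That leaves only the spread between littermates of the same genotype. Within the 6 mutants r was 0.462 for Gli1 and 0.539 for Ptch1. Of 15820 genes, 2.497% had an r with Shh at least as high as that of Gli1 and 3.11% at least as high as that of Ptch1.

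**Figure D3:**
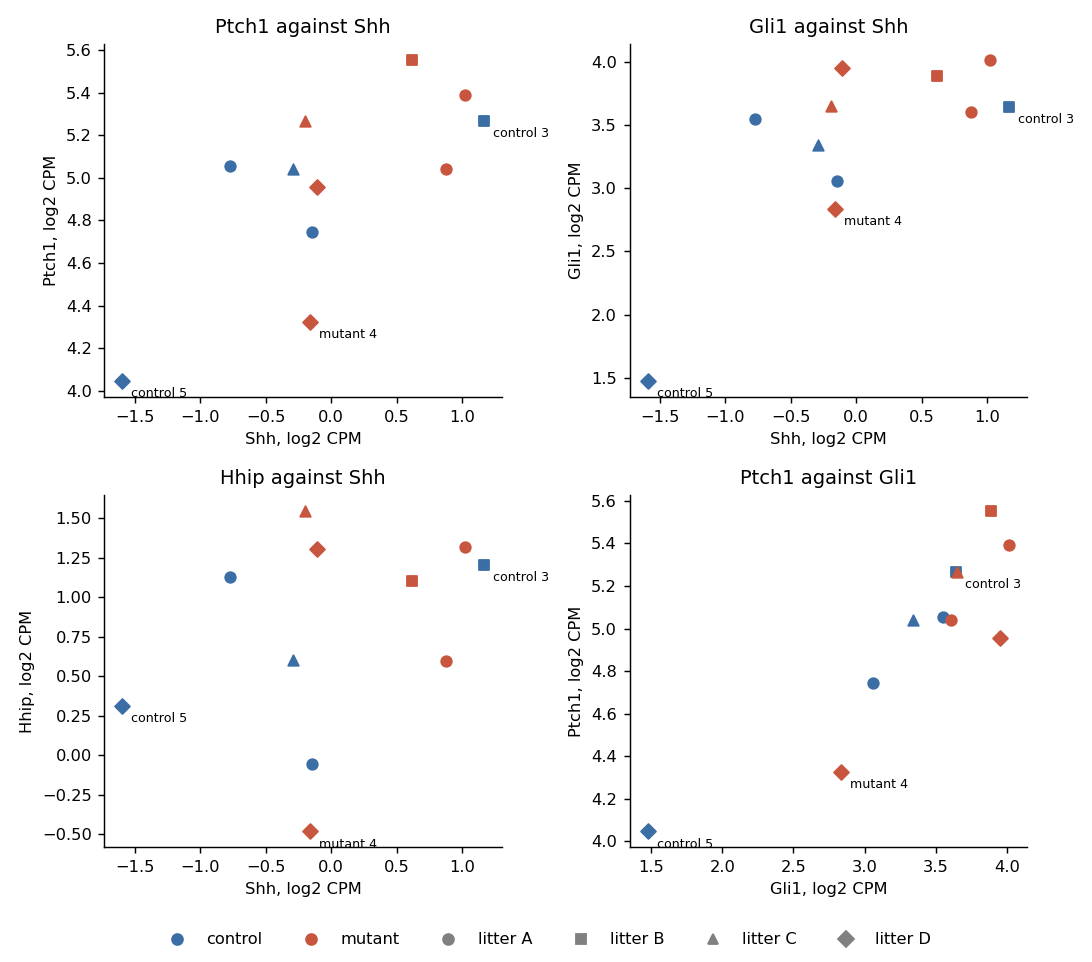
Log2 CPM of the targets against Shh, and of Ptch1 against Gli1, in 11 libraries coloured by genotype and shaped by litter. Control 5 has the lowest Shh, Ptch1 and Gli1; r with Shh is 0.735 for Gli1, 0.713 for Ptch1 and 0.324 for Hhip, and r between Ptch1 and Gli1 is 0.897.

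The relation was also fitted across all genes. With Shh log2 CPM as the only covariate in edgeR, the slope was 0.37 for Ptch1 (SE 0.11, adjusted p = 0.168) and 0.54 for Gli1 (SE 0.18, adjusted p = 0.207). Neither passed, while 0.411% of all genes did, and 2 of 8 members had an unadjusted p under 0.05, against 12.2% of all genes. Beside litter and genotype the slopes were 0.06 for Ptch1 (SE 0.15) and 0.31 for Gli1 (SE 0.29). In that fit 0 of 8 members passed, with 0% of all genes, and 0 of 8 had an unadjusted p under 0.05, against 5.44% of all genes. The counting error of Shh itself, at 3 to 39 reads per library, limits each of these relations.

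The relation with Shh passed for none of the other members. Pearson's r was -0.523 for Gli3 (permutation p = 0.0996), -0.355 for Smo (permutation p = 0.284), -0.333 for Gas1 (permutation p = 0.314), 0.222 for Boc (permutation p = 0.514) and 0.127 for Gli2 (permutation p = 0.711), with adjusted values from 0.266 to 0.711. The sign turned for Gli2 and Boc without controls 5 and 3 (-0.240 and -0.157). Without control 5, r was 0.009 for Boc and -0.077 for Gas1, and without control 3 it was -0.614 for Gas1. Without litter A, which held the highest and lowest libraries in Boc, r for Boc was 0.960 over 7 libraries (exact permutation p = 0.000794, adjusted 0.00635).

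Ptch1 and Gli1 went together across libraries. Over all 36 pairs of members, a family added after seeing the data, 1 pair passed after Benjamini-Hochberg adjustment: Ptch1 and Gli1, with r = 0.897 (permutation p = 0.00015, adjusted 0.0054) and rho = 0.764 (permutation p = 0.00832, adjusted 0.150). Their r was 0.691 without control 5 and mutant 4, which were also the libraries farthest from the median of Ptch1, 0.929 with litter means removed and 0.853 within the 6 mutants. Of 15820 genes, 20 (0.126%), Gli1 among them, had an r with Ptch1 at least that high. The pairs with Hhip did not pass, with r = 0.758 to Ptch1 (permutation p = 0.00729, adjusted 0.105) and r = 0.643 to Gli1 (permutation p = 0.0306, adjusted 0.157). The 2 relations of Hhip were 0.661 and 0.811 without control 5 and mutant 4. Whether these correlations differ from those with Shh was not tested.

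By the rule of the highest r with Shh among 12038 genes at a mean of at least 1 CPM, the genes most like Shh over the 11 libraries were Hoxa11os (0.958), Enpp5 (0.942), Myo1f (0.931), Srgap1 (0.917) and Nab2 (0.915). Without control 5 these values were 0.927, 0.913, 0.880, 0.895 and 0.869. They were picked as the extremes of a long list and carry no test. Hoxa11os, an antisense RNA of the HoxA cluster, ran from 14.0 to 55.4 CPM, and 26.0% of its exon bases overlap Hoxa11 on the other strand. Of the exon bases of Nab2, 42.2% lie in exons of other genes, so that both counts are uncertain.

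Beyond the members, 68 other genes of the pathway were examined in 7 lists, and 64 were tested. Of these, 1 rose and 2 fell after adjustment (4.69%, against 2.18% of all genes tested), and 9 were on the higher and 10 on the lower side at an unadjusted p under 0.05 (29.7%, against 21.4%). The median log2 fold change was 0.04, against 0.004 over all genes. Ihh, Dhh, Scube2 and Pax9 were below the filter on low counts.

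**Figure D4:**
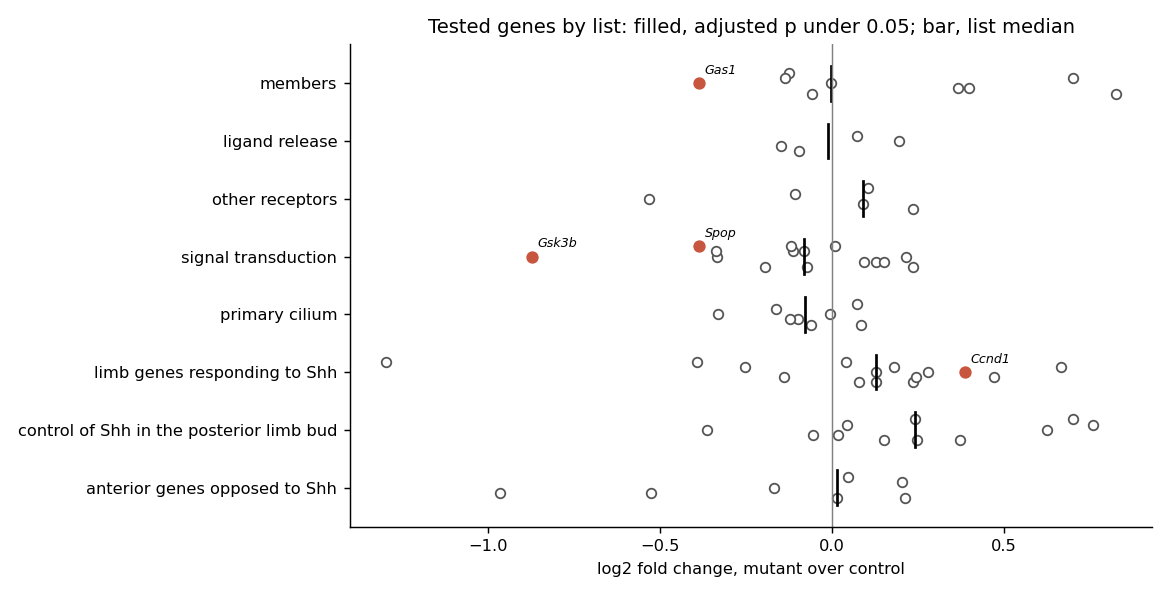
Log2 fold change, mutant over control, of each tested gene in the 7 lists of other pathway genes and in the 9 members; filled points passed an adjusted p of 0.05 and bars give the list median. Gsk3b, Spop, Ccnd1 and the member Gas1 are filled, and the medians run from -0.08 (signal transduction, primary cilium) to 0.24 (control of Shh in the posterior limb bud).

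Among genes for release of the ligand, 0 of 4 passed, and 1 had an unadjusted p under 0.05 (25%, against 21.4% of all genes tested). Scube1, a secreted protein that helps release the lipid-modified ligand, had a log2 fold change of 0.19 (SE 0.08, adjusted p = 0.199), and Disp1, which exports it, had -0.15 (SE 0.11, adjusted p = 0.480, edgeR). Among other receptors, 0 of 5 passed and 0 had an unadjusted p under 0.05, against 2.18% and 21.4% of all genes tested. Lrp2, an endocytic receptor that binds Shh, had -0.53 (SE 0.50) and Gpc3, a glypican that competes for the ligand, had -0.11 (SE 0.11, edgeR).

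Among 15 genes of signal transduction, 2 fell and 0 rose (13.3%, against 2.18% of all genes tested). At an unadjusted p under 0.05 there were 5 on the lower and 1 on the higher side (40%, against 21.4% of all genes tested). Spop, an adaptor of a ubiquitin ligase that targets full-length Gli2 and Gli3, fell by 0.39 (SE 0.08, adjusted p = 0.0437 by edgeR), with 113 ± 6.81 CPM in controls (SD, n = 5) and 86.0 ± 10.6 CPM in mutants (SD, n = 6). All mutants were below all controls for Spop. Gsk3b, a kinase that takes part in Gli processing and also acts in Wnt signalling, fell by 0.87 (SE 0.19, adjusted p = 0.0464 by edgeR). Its level was 722 ± 172 CPM in controls (SD, n = 5) and 379 ± 138 CPM in mutants (SD, n = 6).

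Gsk3b followed the T-run index: control 5 was at 428 CPM, against 736 to 880 CPM in the other controls, mutant 5 was at 610 CPM, and the other mutants were at 201 to 426 CPM. Its longest T run was 30 bases, and with the index as a covariate its fold change was -0.06. For Spop, with a longest T run of 10 bases, the value was -0.18. The part of the property behind the index in these falls was not tested. When single libraries were left out, Gsk3b and Spop passed only without control 5 or mutant 2, with adjusted p up to 0.191 for Gsk3b and 0.190 for Spop (edgeR).

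The list of 8 primary cilium genes had 0 calls, and 2 genes on the lower side had an unadjusted p under 0.05 (25%, against 21.4% of all genes tested). Ift122, a subunit of the intraflagellar transport complex that returns cargo from the cilium tip, had -0.33 (SE 0.13, adjusted p = 0.168), and Kif3a, a motor subunit that moves cargo outwards, had -0.16 (SE 0.06, adjusted p = 0.168, edgeR).

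Among 15 limb genes known to respond to Shh, 1 rose and 0 fell (6.67%, against 2.18% of all genes tested), with a median of 0.13. At an unadjusted p under 0.05 there were 3 on the higher and 1 on the lower side (26.7%, against 21.4% of all genes tested). Ccnd1, which encodes the G1 cyclin D1, rose by 0.39 (SE 0.09, adjusted p = 0.0495 by edgeR), with 68.4 ± 4.80 CPM in controls (SD, n = 5) and 88.7 ± 9.74 CPM in mutants (SD, n = 6). Mutants other than mutant 4 (70.7 CPM) were above every control. In GENCODE M21, 23.4% of its exon bases are shared with a gene on the other strand, LTO1, that is no row of the count table. With the T-run index in the model the value was 0.20, and when single libraries were left out Ccnd1 passed only without control 5 (adjusted p 0.0417 to 0.190, edgeR).

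Among 11 genes that control Shh in the posterior limb bud, 0 passed, and the median was 0.24. At an unadjusted p under 0.05, 4 were on the higher and 1 on the lower side. This is 45.5%, against 21.4% of all genes tested (9.84% higher and 11.5% lower). Twist1, a mesenchymal factor, had 0.25 (SE 0.08, adjusted p = 0.101), and Hand2, a direct activator of Shh in the posterior bud, had 0.37 (SE 0.14, adjusted p = 0.161, edgeR). Hand2 was at 10.6 to 17.7 CPM in controls and 14.9 to 21.5 CPM in mutants. Hoxd11, Hoxd12 and Hoxd13 of this list are genes that were low in control 5 and mutant 4. Hoxd11 and Hoxd13 are among the 4 on the higher side. Their log2 differences were 1.92 and 1.81 in litter D, against -0.34 to 0.69 and -0.34 to 0.77 in the other litters. Of 7 tested anterior genes that are opposed to Shh, 0 passed, and 1 had an unadjusted p under 0.05 (14.3%, against 21.4% of all genes tested). This was Alx4, a repressor of posterior fate, with a log2 fold change of -0.53 (SE 0.16, adjusted p = 0.0944, edgeR). Alx4 was higher in mutant 4, at 23.7 CPM, than in the other mutants, at 11.6 to 17.1 CPM, while control 5, at 18.6 CPM, was below the other controls, at 20.5 to 26.7 CPM.

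**Figure D5:**
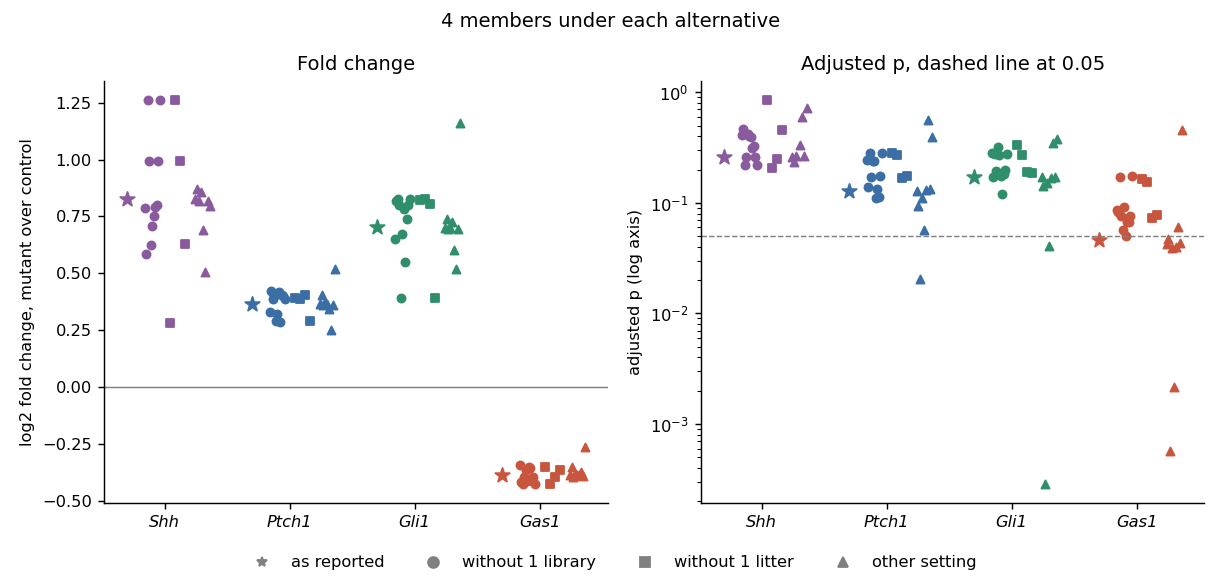
Log2 fold change (left) and adjusted p (right, log axis, dashed line at 0.05) of 4 members under each alternative analysis, grouped by the kind of alternative. The fold change of Gas1 stays negative under every alternative shown, from -0.42 to -0.26, while its adjusted p lies on both sides of the line.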

How the data were processed

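Total RNA of forelimb buds was depleted of ribosomal RNA and sequenced, and samples of low RNA integrity were rejected, per the labels. The authors deposited unnormalised counts of reads per gene name, which they made with featureCounts 1.4.6-p4 on mm10 and the GENCODE M9 annotation at a mapping quality of at least 10 and with no option for strand or read pairs, per the file headers. The aligner was STAR 2.5.4b, per the submitters' processing notes. The header lists 12 alignment files, and the table used here has 11 columns.

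The analysis used R 4.3.3 with edgeR 4.0.16 and limma 3.58.1. The filter filterByExpr, given the design, left 15821 genes with 99.9% of the counts. CPM are relative to totals scaled by TMM. Genotype was tested beside a litter block with edgeR's two-sided quasi-likelihood F test, p-values were adjusted by Benjamini-Hochberg across these genes, and an adjusted p under 0.05 was called. SE and 95% intervals come from the same test. The litter and interaction tests used 3 coefficients together. Log2 CPM for litter differences, permutation and correlation used a prior count of 2. Permutation within litters was exact over 72 arrangements, with a smallest p of 0.0139, and correlations used 100000 resamples, or exact enumeration under 10 libraries. The script was tested on simulated data with 200 changed genes.

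The litter pairing comes from the sample titles and the design text. As a check, the deviations from group means were correlated across genes in pairs of a control and a mutant library. The correlation was -0.16 to 0.37 (median 0.13) in 8 same-litter pairs and -0.33 to 0.17 (median -0.02) in 22 pairs from other litters. The labels give neither the somite number of single embryos nor whether a library holds 1 embryo, and p-values measure the spread between these libraries. Pairing by somite stage within a litter was therefore not in the model, which blocks on litter alone. No pair of libraries of a group was alike to within sampling noise (25 pairs, chi-square per degree of freedom at least 6.82).

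The members and the gene lists were chosen with earlier results of these data known. Named genes were the 9 members, Gmnn, from each list the genes past the threshold or otherwise the 2 with the smallest p, and the 5 genes with the highest r to Shh at a mean of at least 1 CPM, leaving out predicted genes, Xist and Y-linked genes. For 1 list, 1 gene that this rule names is not reported here. The T-run covariate and the family of 36 pairs were added after seeing the data. Exon overlaps come from GENCODE M21 and promoters from RefSeq. Alternatives were scaling by RLE or upper quartile, no filter, a filter of 1 CPM in 5 libraries, DESeq2 1.42.0, limma-voom, no block, exclusion of 233 genes (haemoglobin, ribosomal RNA and mitochondrial; 3.19% to 7.75% of counts), and leaving out each library or litter.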

Additional observations from a re-analysis of the deposited data

Results flagged for a closer look

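Of 36 comparisons, the highest and the lowest library for each member in each genotype group, 3 had a library farther from its neighbour than 95% critical values allow, where chance gives about 1 in 20 groups, or 0.9 among the 18 groups. Gli1 in control 5 stood at 1.48 log2 CPM, below the other controls at 3.06 to 3.64. Gli1 in mutant 4 stood at 2.84 log2 CPM, below the other mutants at 3.60 to 4.01. Both libraries are from litter D and were low in Ptch1 and in Hoxd11, Hoxd12 and Hoxd13 as well. Boc in mutant 2 stood at 3.10 log2 CPM, below the other mutants at 3.82 to 4.20, and mutant 2 also had the lowest T-run index (0.81).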

How the results depend on the processing

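The fold changes of Shh, Ptch1, Gli1, Hhip, Gli2 and Gas1 kept their sign under all alternatives run for them. The number of genes called, 345, was 1566 with no filter on low counts, 550 with a filter of 1 CPM, 1194 with DESeq2, 9, 3, 1 and 148 without litters A to D, 2 with the T-run index in the model, and 1 to 850 without single libraries. Without control 5 it was 850 and without control 4 or mutant 5 it was 1. Members called, 1, were 3 with no filter, 2 with DESeq2, and 0 with the T-run index, without any of the 4 litters or without any single library. Other pathway genes called, 3, were 12 with no filter, 6 with DESeq2, 0 without litters A, B or C, 1 without litter D, 0 with the T-run index, and 0 to 7 without single libraries (7 without control 5). Without the replicate block for litter, 13 genes, 0 members and 0 other pathway genes were called, and Gas1 had -0.37 (adjusted p = 0.0603, edgeR), Gsk3b -0.93, Spop -0.39 and Ccnd1 0.37; the numbers of calls were thus smaller without the pairing. Gas1 passed under 7 of 24 alternatives. Ptch1 passed with no filter alone (adjusted p = 0.0204), and Gli1 with no filter (0.000289) and DESeq2 (0.0407). Genes going with the Shh level, 0, were 65 with Shh as the only covariate, 2 without litter A and 0 to 6 without single libraries (6 without mutant 2). With a prior count of 0.5, r with Shh was 0.723 for Ptch1 and 0.756 for Gli1 (permutation, adjusted 0.0488 for both). Without single libraries it ran from 0.485 to 0.777 for Ptch1 and from 0.449 to 0.810 for Gli1, past the threshold without control 2, mutant 4 or mutant 5. With the mean of each genotype within its litter removed, which leaves only the spread within 3 pairs of libraries, r was -0.222 for Ptch1, -0.231 for Gli1, -0.375 for Hhip, 0.898 for Smo, 0.913 for Gli3 and 0.619 for Gas1. Signs also turned for members that were near 0: Smo had 0.036 with upper-quartile scaling, 0.004 with no block, 0.05 without litter A, 0.113 with the T-run index and -0.025 to 0.042 without single libraries (positive without control 1, mutant 2 or mutant 3). Gli3 had 0.075 without litter A, 0.227 with the T-run index and -0.135 to 0.011 without single libraries (positive without control 1). Boc had 0.180 without litter A, 0.817 with the T-run index, and -0.320 to 0.129 without single libraries (positive without control 1 or mutant 2). For r with Shh, Gli2 turned to -0.231 with litter means removed, -0.210 in mutants alone, -0.240 without controls 5 and 3, -0.324 without litter B and between -0.184 and 0.387 without single libraries (negative without control 3), and Boc to -0.313 in mutants alone and -0.157 without controls 5 and 3. The cause was not tested for any of these. Shh was not tested under the 1 CPM filter, and DESeq2 gave no adjusted p for Shh and Hhip. Leaving out either library of litters B or C leaves a lone library in that litter, which adds nothing to the genotype difference. Reads limit Shh (3 to 39 per library) and Hhip (10 to 41) most.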
